A study of Homo sapiens with 26 samples.

Results

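The RNA described here is that found with ribosomes biotinylated at the outer mitochondrial membrane (OMM) of wild-type HEK293T cells, measured by RNA-seq of whole transcripts. Of the 26 libraries of the series, 4 hold it. From each of 2 lysates a library was made of the total input and another of what streptavidin pulled down, and each pulldown was set against its own total input. The files list 60663 genes with a count of reads each, and a gene was a member if its reads averaged at least 64 over the 2 total inputs, which left 13427 genes. They comprise 11865 of 19928 protein-coding genes, 1052 of 16780 long noncoding RNAs (lncRNAs), 381 of 15196 pseudogenes, 56 of 7042 small noncoding RNAs, 62 genes of other biotypes and 11 without a match in the annotation. Just inside the minimum stood genes with a mean of 64 reads, and just outside it B3GALT1 and TMSB15B-AS1 with 63.5.

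HEK293T is a human embryonic kidney line. In the line used, the ribosomal protein RPL29 carries an Avi tag at its own gene, and LOV-BirA, a biotin ligase switched on by blue light, sits on the OMM through the transmembrane domain (TMD) of OMP25, expressed with GFP from a lentivirus under the EF1α promoter in a sorted polyclonal population. The wild-type cells carry a negative control gRNA. They were treated with cycloheximide (CHX), which holds ribosomes on their mRNAs, according to the general protocol and to separate libraries that are labelled as made without it. For comparison, an AKAP1 null and a LARP4 null line, each 1 monoclonal line on the same background, were measured in the same way with 2 lysates each, so that 12 RNA-seq libraries entered the fit, and 4 ribosome profiling libraries from the same OMM labelling served as a second readout. Nothing in the labels says whether the 2 lysates came from cultures grown apart, so p-values measure the spread between these lysates.

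Most proteins of mitochondria are encoded in the nucleus, translated by cytosolic ribosomes and imported. Some of their mRNAs are held at the OMM, either by the nascent chain, whose amino-terminal targeting sequence engages the import machinery while translation goes on, or by RNA-binding proteins that sit on the membrane. RNA-seq of the pulled-down ribosomes, unlike footprints in coding sequences, also counts RNAs that are not translated, including those of the nucleus and the nucleolus, and a transcript near the OMM more often and one with more labelled ribosomes on it cannot be told apart by it. In bulk cells, fewer cells of a kind and less RNA per cell cannot be told apart either. No RNA-seq pulldown of the series is labelled as made with a bait elsewhere in the cell or without biotin labelling. How much of an enrichment or depletion is particular to the OMM, rather than shared by any pulldown of ribosomes, was therefore not tested.

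The 12 libraries held 38347615 to 100840544 reads on genes, and the 4 wild-type libraries 38347615 to 55605306. Levels are given as CPM, a gene's counts scaled to the total of its library, and enrichment is the log2 change of a gene's share of reads, pulldown over total input, from a fit with a term for each lysate, with its standard error (SE). AKAP1 was measured at 115 and 119 CPM in the wild-type total inputs and at 32.2 and 20.3 CPM in those of the AKAP1 null line, and LARP4 at 225 and 231 CPM against 79.3 and 74.0 CPM in the LARP4 null line. The neuronal and embryonic genes NEFM, NEFL, INA, LIN28B, IGF2BP1 and PAX2, which mark HEK293T cells, were all present in the total inputs, while PTPRC, HBB, ALB and PECAM1 averaged at most 6.5 reads, COL3A1 21 and COL1A1, a collagen of fibroblasts, 537. All 37 genes of the mitochondrial genome are listed at 0 in every library. The pulldown of the second LARP4 null lysate stands apart from the other pulldowns in its higher share of lncRNA reads, 2.06% against 0.961% to 1.17%.

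The 2 wild-type lysates gave nearly the same picture. Across the 13427 genes the log2 enrichment of lysate 1 and that of lysate 2 correlated with a Pearson's r of 0.961 and a Spearman's ρ of 0.954, their difference had an SD of 0.224, and 12488 genes (93.0%) had the same sign in both. The 10935 genes that passed a minimum 4 times as high agreed more closely, with an r of 0.980, than the 18373 with at least 10 reads, with an r of 0.852. These correlations run across genes, which are not independent replicates.

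Of all genes tested, 2685 (20.0%) were enriched in the pulldown and 6375 (47.5%) were depleted, together 67.5%, at an adjusted p below 0.05 in edgeR's quasi-likelihood test with Benjamini-Hochberg adjustment. The median gene lay at −0.31. Counts for lists of genes below are to be read beside these shares. A log2 enrichment above 1 was called for 860 genes (6.41%) and one below −1 for 1601 (11.9%). The split depends on the scale: with TMM scaling, which assumes that most genes do not change, the median was 0.01 and 4201 genes (31.3%) were enriched and 3761 (28.0%) depleted, so a gene between −0.31 and 0 here is one that sits above the median gene. With lysate 2 left out, 1654 genes were enriched and 3658 depleted, and with lysate 1 left out 1805 and 4323. Without the LARP4 null pulldown that stands apart and its total input, which enter only the estimate of the spread, 3185 were enriched and 7424 depleted.

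Among nuclear-encoded mitochondrial genes, 582 of 1012 (57.5%) were enriched and 185 (18.3%) depleted, with a median of 0.44 against −0.33 for the other 10853 protein-coding genes, of which 1906 were enriched and 5514 depleted. The summed share of the mitochondrial genes rose from 73395 and 72734 CPM in the total inputs to 122692 and 131005 CPM in the pulldowns. With TMM scaling the counts were 710 enriched and 77 depleted, and without either lysate 102 to 105 were depleted.

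Among protein-coding genes, COX6A1 was the most enriched, followed by NDUFB9, both small subunits of the respiratory chain. COX6A1, a subunit of cytochrome c oxidase (chromosome 12, 120438090 to 120440737, GRCh38, 3 exons), had 64.05 and 66.9 CPM in the total inputs and 892 and 932 CPM in the pulldowns, a 13.9-fold higher share (log2 3.80 ± 0.11 SE, adjusted p = 1.1e-06). NDUFB9, an accessory subunit of complex I, had 109 and 105 CPM in the total inputs and 1362 and 1405 CPM in the pulldowns, or 12.9-fold (log2 3.69 ± 0.12, adjusted p = 1.9e-06). In both genes the pulldowns lay more than 10-fold above the total inputs and the lysates differed by little. UQCRC1, a core subunit of complex III with a long protein, had 128 and 116 CPM in the total inputs and 1093 and 1173 CPM in the pulldowns (9.33-fold, adjusted p = 6.4e-06). PMPCA, the α subunit of the peptidase that removes presequences in the matrix, had 92.6 and 82.6 CPM against 653 and 668 CPM (7.55-fold, adjusted p = 6.4e-06). Of the 10 most enriched genes, UQCRC1, PMPCA and METTL17 encode proteins above 400 amino acids (aa) and the other 7 encode proteins below 200 aa.

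COX7A2, another subunit of cytochrome c oxidase, had 70.7 and 95.0 CPM in the total inputs and 471 and 687 CPM in the pulldowns (log2 2.80 ± 0.12). UQCRQ, of complex III, rose by 2.76 ± 0.10, and COX5B, of complex IV, by 2.70 ± 0.13. METTL17, which acts in assembly of the mitochondrial ribosome, rose by 2.82 ± 0.14, from 46.5 and 44.1 CPM to 307 and 334 CPM. MZT2B, a component of the γ-tubulin ring complex and no mitochondrial protein, rose by 2.93 ± 0.10, from 42.7 and 46.6 CPM to 319 and 362 CPM, and 34% of its exonic bases are shared with SMPD4. PHPT1, a histidine phosphatase, rose by 2.60 ± 0.16. In each of these genes, which were chosen as the largest rises, both pulldowns lay above both total inputs, as the plot of levels shows library by library.

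**Figure D1:**
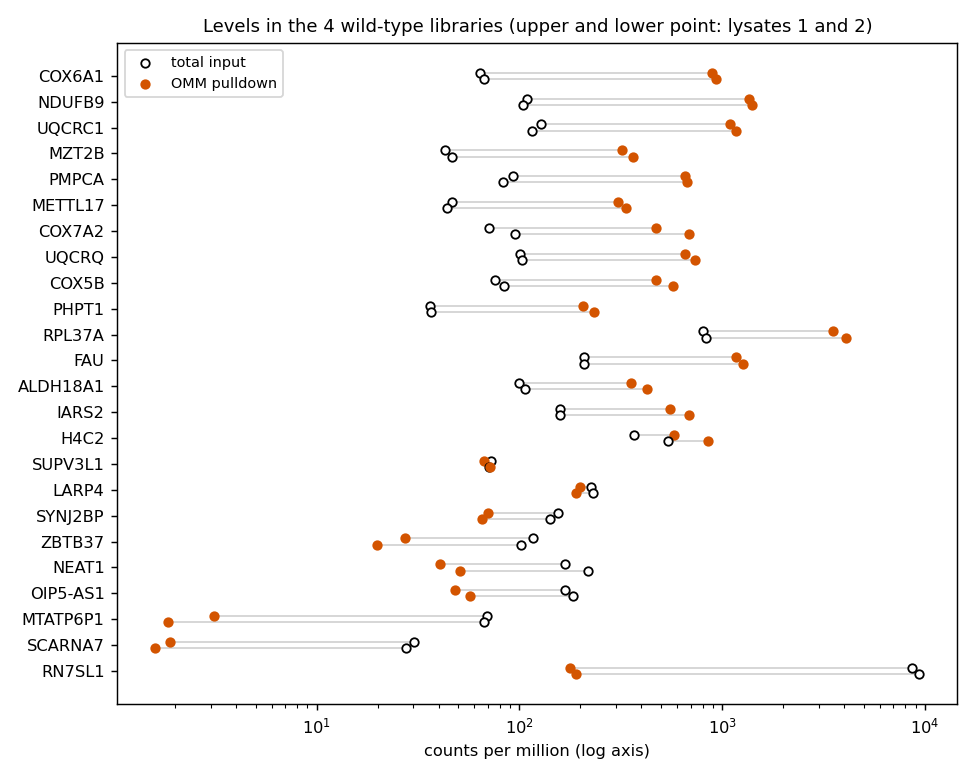
CPM (log axis) of 24 genes in the 4 wild-type libraries, open points for total inputs and filled points for pulldowns, with lysate 1 above lysate 2 in each row. COX6A1 moves from 64.05 and 66.9 to 892 and 932 CPM, SUPV3L1 hardly moves, and RN7SL1 falls from 8656 and 9386 to 178 and 190 CPM.

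Subunits of oxidative phosphorylation were enriched nearly throughout. All 12 complex IV subunits tested rose (median 2.24), as did all 9 of complex III (1.66), all 17 of complex V, the ATP synthase (1.61), and all 4 of complex II (0.76), while 34 of 37 complex I subunits rose and 2 fell (1.68). Values within a complex spread widely. In complex IV they ran from 0.93 ± 0.10 for COX7A2L, which acts in supercomplex assembly, to COX6A1, and in complex V from 0.29 ± 0.10 for ATP5PB, a stalk subunit, to 2.57 ± 0.11 for ATP5MC1, which encodes a subunit of the proton-conducting ring. UQCRFS1, the iron-sulfur protein of complex III, stood at 0.63 ± 0.12 beside 2.37 ± 0.10 for the small subunit UQCR11. The iron-sulfur subunit SDHB of complex II rose by 1.08 ± 0.10 and its membrane anchor SDHD by 0.31 ± 0.10. ATP5PB and SDHD were no longer called with lysate 1 left out (0.28 and 0.40) or lysate 2 left out (0.30 and 0.22).

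Within complex I both directions occurred. NDUFB10 had 146 and 167 CPM in the total inputs and 778 and 969 CPM in the pulldowns (2.47 ± 0.11). NDUFS1, the largest subunit of the complex, with an annotated transcript of 11660 nt, had 232 and 242 CPM in the total inputs and 161 and 144 CPM in the pulldowns (−0.64 ± 0.09). The other depleted member, NDUFV2, is listed at only 2.74 and 2.85 CPM in the total inputs and shares 28% of its exonic bases with other genes, so its −1.74 ± 0.27 rests on few reads.

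Genes for translation inside mitochondria were also mostly enriched. Of 76 mitochondrial ribosomal proteins, 60 rose and 3 fell (median 0.95), from MRPL41 at 2.26 ± 0.11 to MRPL42 at −0.76 ± 0.09. Of 16 mitochondrial tRNA synthetases, 12 rose and 1, WARS2, fell (median 0.69), a fall that was not called with TMM scaling (−0.15), with DESeq2 (−0.15) or without a term for lysates (−0.46). FARS2, which charges phenylalanine tRNA, had 8.68 and 11.6 CPM in the total inputs and 36.3 and 65.4 CPM in the pulldowns (2.29 ± 0.14), and IARS2, the isoleucine enzyme, had 158 and 158 CPM against 550 and 687 CPM (1.96 ± 0.17). Of 10 translation factors, 6 rose and 2 fell (0.81). Among them the elongation factors TUFM (2.02 ± 0.12) and GUF1 (1.69 ± 0.17) and the recycling factor GFM2 (1.74 ± 0.12) stood well above the release factor MTRF1 (−0.44 ± 0.13), whose call was lost without lysate 1 (−0.32) or lysate 2 (−0.55) and with TMM scaling (−0.12).

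Matrix enzymes varied more from gene to gene. Of 20 enzymes of the TCA cycle and of pyruvate metabolism, 14 rose and 3 fell (median 0.49). PCK2, the mitochondrial form of the enzyme that makes phosphoenolpyruvate, had 17.5 and 22.7 CPM in the total inputs and 75.7 and 137 CPM in the pulldowns (2.36 ± 0.16), and DLD, a subunit shared by several dehydrogenase complexes, rose by 2.33 ± 0.12. DLAT, which works in the same pyruvate dehydrogenase complex as DLD, went the other way at −0.38 ± 0.09, a value that TMM scaling puts at −0.07. Of 8 enzymes of proline and one-carbon metabolism, 4 rose and 1 fell. ALDH18A1, which makes the precursor of proline, had 99.3 and 106 CPM against 357 and 425 CPM (1.92 ± 0.11), and ALDH4A1, which acts in proline breakdown, rose by 1.74 ± 0.13. The call of DLAT was lost without lysate 1 (−0.35) or lysate 2 (−0.40).

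Of 13 presequence peptidases and other proteases, 9 rose and 1, XPNPEP3, fell (median 0.73). PMPCB, the partner of PMPCA, rose by 2.01 ± 0.14 and MIPEP, which trims some imported proteins further, by 1.37 ± 0.16. Of 29 subunits of the import complexes TOM, SAM and TIM, 23 rose and 2 fell (0.61). The rises were led by TOMM7 (2.08 ± 0.10), a small subunit of the entry gate, and included TIMM10 (1.85 ± 0.09), a chaperone of the intermembrane space. The receptor TOMM70 fell from 177 and 240 CPM to 115 and 151 CPM (−0.65 ± 0.08).

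Genes for the outer membrane itself and for carriers went in both directions. Of 27 outer membrane proteins, 12 rose and 9 fell (median 0.13, beside −0.31 for all genes), and of 32 carriers of the SLC25 family, which sit in the inner membrane and lack a cleavable presequence in most cases, 9 rose and 11 fell (0.01). FIS1, a short tail-anchored protein, had 46.7 and 41.4 CPM in the total inputs and 146 and 150 CPM in the pulldowns (1.75 ± 0.10). MAVS, a tail-anchored adaptor of antiviral signaling, lay at −1.03 ± 0.10. SYNJ2BP, the protein whose TMD anchors LOV-BirA in this system under its other name OMP25, had 155 and 142 CPM in the total inputs and 69.8 and 65.0 CPM in the pulldowns (−1.14 ± 0.09). Among carriers SLC25A1, which exports citrate, rose by 0.95 ± 0.11 and SLC25A36, another carrier, stood lowest at −1.60 ± 0.11. With TMM scaling the counts of these lists were 16 and 6, and 17 and 8.

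Of 13 RNA-binding proteins linked to the OMM, 2 rose and 8 fell (median −0.44). The 2 that rose were AKAP1, an anchor of RNA and kinases on the OMM, with 115 and 119 CPM in the total inputs and 144 and 181 CPM in the pulldowns (0.47 ± 0.13), and LARP1, with 641 and 765 against 841 and 931 CPM (0.34 ± 0.09). LARP4 did not pass the test at −0.23 ± 0.09 (adjusted p = 0.056), a value that turns to 0.08 with TMM scaling. AKAP1 was not called without lysate 2 (0.34), nor was LARP1 without lysate 1 (0.28) or lysate 2 (0.39). The helicase SUPV3L1 and the RNA regulator TBRG4, both in the matrix, were not called either, at −0.04 ± 0.10 and −0.09 ± 0.08, and with TMM scaling at 0.27 and 0.22.

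**Figure D2:**
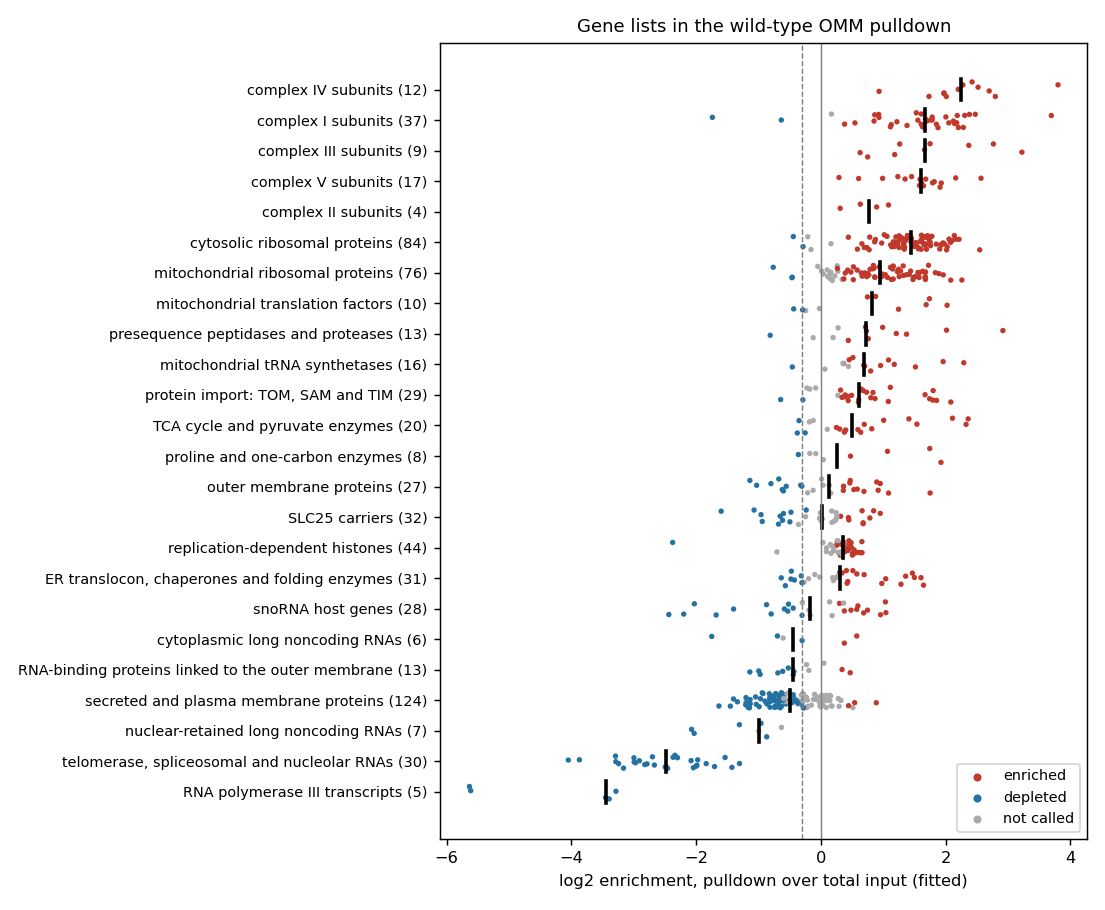
Log2 enrichment (pulldown over total input, fitted) of every tested member of 24 gene lists, 1 point a gene colored by its call and a black bar for the list's median; the solid line marks 0 and the dashed line the median of all genes, −0.31. Respiratory chain lists lie at the top with medians of 1.61 to 2.24 for complexes I, III, IV and V, and RNA polymerase III transcripts at the bottom with −3.45.

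By annotated compartment, the inner membrane had 152 enriched and 23 depleted of 208 genes (median 0.72), the matrix 213 and 58 of 355 (0.50), the intermembrane space 25 and 7 of 39 (0.52) and the outer membrane 25 and 20 of 58 (0.14). The rest of the 1012 mitochondrial genes tested had another compartment or none in the annotation used and are not counted here. Protein length cut across compartments. Among inner membrane proteins below 200 aa, 70 of 71 were enriched and none depleted (median 1.75), against 35 and 7 of 58 above 400 aa (0.43). In the outer membrane 12 of 16 short proteins rose and none fell (0.99), whereas 5 of 20 long ones rose and 13 fell (−0.37).

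Short proteins were also enriched outside mitochondria. Below 200 aa, 211 of 255 mitochondrial genes rose and 12 fell (median 1.16), and of 1187 other genes 698 rose and 174 fell (0.47). Between 200 and 400 aa the medians were 0.29 and −0.02. Above 400 aa, 165 of 357 mitochondrial genes rose and 94 fell (0.22), while of 6791 other genes 342 rose and 4455 fell (−0.51). The distance between the medians of mitochondrial and other genes was 0.69 for short, 0.30 for middle and 0.72 for long proteins.

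The length of the annotated transcript went with enrichment more closely than that of the protein. Spearman's ρ between enrichment and transcript length was −0.58 over the 1012 mitochondrial genes and −0.69 over the 10853 others, against −0.37 and −0.55 for protein length, −0.48 and −0.49 for the length of the 3′ untranslated region, and 0.02 and −0.15 for the number of reads. In the shortest quartile of transcripts, up to 2277 nt, the median was 0.75 for mitochondrial and 0.36 for other genes. In the next quartiles, bordered by 3661 and 5584 nt, they fell to 0.25 and −0.22, to −0.09 and −0.50, and to −0.40 and −0.77. The median of mitochondrial genes lay above that of other genes in all 4 quartiles, by 0.37 to 0.46. Within the shortest quartile, 181 of 199 mitochondrial genes with short proteins were enriched (median 1.32), against 585 of 758 other genes with short proteins (0.79), and for proteins above 400 aa the medians there were 0.48 and 0.04. Transcript, protein and coding length vary together, and their separate parts in enrichment were not tested.

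**Figure D3:**
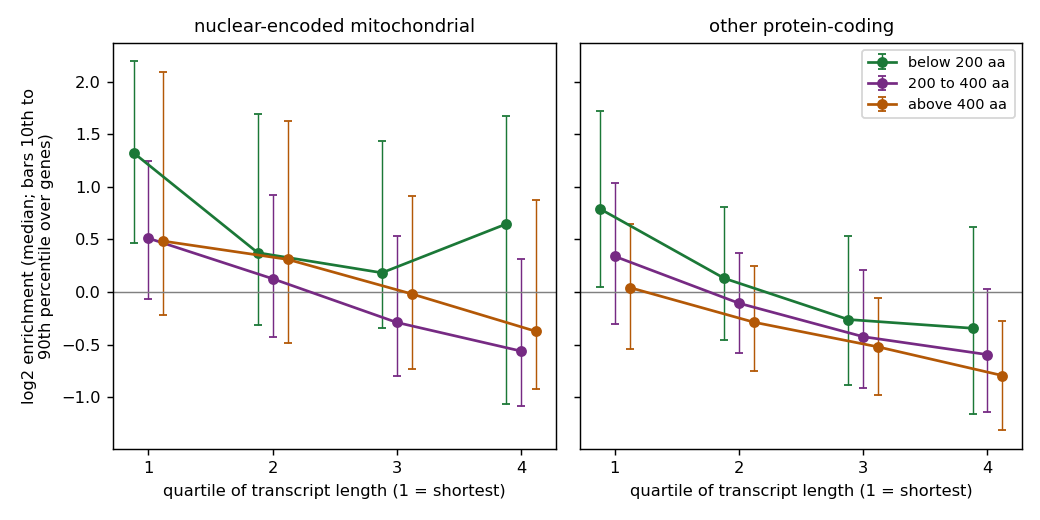
Median log2 enrichment by quartile of transcript length (1 = shortest) and by protein length, for mitochondrial genes on the left and other protein-coding genes on the right, with bars from the 10th to the 90th percentile over genes. Medians of other genes fall from 0.79 to −0.34 for short proteins and from 0.04 to −0.79 for long ones, and the point for short mitochondrial proteins in quartile 4 holds only 9 genes.

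Cytosolic ribosomal proteins were enriched with few exceptions. Of 84 tested, 79 were enriched and 2 depleted, with a median of 1.45, and their summed share rose from 51319 and 53864 CPM in the total inputs to 126597 and 139618 CPM in the pulldowns. RPL37A had 805 and 828 CPM in the total inputs and 3522 and 4070 CPM in the pulldowns (2.21 ± 0.10), FAU rose by 2.54 ± 0.11 and RPS21 by 2.16 ± 0.10. RPL29, whose protein carries the Avi tag, rose by less, 0.58 ± 0.13, from 311 and 334 to 460 and 507 CPM. The 2 that fell were RPL7L1, a relative of RPL7 that acts in ribosome assembly (−0.44 ± 0.08), and RPSA (−0.29 ± 0.09), which TMM scaling puts at −0.13 and 0.03, neither of them called. The calls of RPL29 without lysate 2 (0.56) and of RPSA without lysate 1 (−0.36) or 2 (−0.21) were lost. Most of these proteins are short, and the group was not tested against other short proteins.

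Replication-dependent histones, whose mRNAs end in a stem-loop and lack a poly(A) tail, were slightly enriched. Of 44 tested, 25 rose and 1 fell, with a median of 0.36, and with TMM scaling 42 rose and 1 fell. H4C2 had 366 and 539 CPM in the total inputs and 577 and 852 CPM in the pulldowns, so that the lysates differed in level but each showed the same change (0.66 ± 0.11). H2AC16 rose by 0.66 ± 0.09 and H2AC17 by 0.50 ± 0.16, though 71% of the exonic bases of H2AC17 are shared with H3C12 and its call was lost without lysate 1 (0.59) or lysate 2 (0.42). The labels name polyA RNA and the methods describe depletion of ribosomal RNA, and the part of this difference in the levels of histones and of small RNAs was not tested. The member that fell, H2AC7 at −2.38 ± 0.22, shares 85% of its exonic bases with another gene.

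Genes of the secretory pathway went both ways. Of 31 genes for the ER translocon, chaperones and folding enzymes, 16 rose and 7 fell, with a median of 0.30, and here the lysates differed, with medians of 0.43 and 0.16. SEC61B, a small tail-anchored subunit of the translocon, led with 110 and 95.3 CPM in the total inputs and 320 and 319 CPM in the pulldowns (1.64 ± 0.11), and STT3B, a large subunit of the oligosaccharyltransferase, was lowest (−0.64 ± 0.10). Of 124 genes for secreted and plasma membrane proteins, 3 rose and 70 fell, with a median of −0.49 beside −0.31 for all genes. The protocadherin PCDH9 went from 326 and 265 CPM to 129 and 89.6 CPM (−1.45 ± 0.18), and the receptor FZD9 rose by 0.89 ± 0.22 from 3.96 and 3.07 CPM, a call that was lost without lysate 1 (0.90) or lysate 2 (0.87).

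The 10 largest falls among protein-coding genes were mostly of low level. The taste receptor gene TAS2R4 had 2.16 and 2.85 CPM in the total inputs and 0.151 and 0.342 CPM in the pulldowns, which is 8 and 19 reads (−3.36 ± 0.38). PSMA2, listed at 5.11 and 4.24 CPM, stood at −3.33, HTD2 at −3.01, TBCE at −2.44, ENSG00000284946 at −2.41, MSH5 at −2.37, PI15 at −2.32 and C6orf163 at −2.23. H2AC7 belongs to this group as well. ZBTB37, a zinc finger gene with an annotated transcript of 19183 nt, was the most abundant, with 116 and 102 CPM in the total inputs and 27.3 and 19.9 CPM in the pulldowns (−2.22 ± 0.20, adjusted p = 4.3e-05). Of the 10, TAS2R4, PI15, C6orf163 and ZBTB37 share no exonic base with another gene. The other 6 share from 30% (PSMA2) to 94% (HTD2, with RPP14), and how the authors' counting divides such reads is not given in the sources used here.

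Small noncoding RNAs stood below the other classes of RNA. They made up 0.960% and 1.04% of the reads on genes in the total inputs and 0.0299% and 0.0317% in the pulldowns. Of the 56 tested, none was enriched and 55 were depleted, with a median of −2.47, and the same held with TMM scaling. The exception was RNVU1-8, a variant spliceosomal RNA at −0.55, which was chosen for mention after its value was seen. Below the minimum of reads stood 6986 of the 7042 in the files, so the 56 are the few with enough reads.

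RN7SL1, the RNA of the signal recognition particle (chromosome 14, 49586580 to 49586878, 1 exon), had the most reads of any gene in both total inputs, 8656 and 9386 CPM, and 178 and 190 CPM in the pulldowns, a 49.0-fold lower share (−5.61 ± 0.11, adjusted p = 2.1e-07). Its paralog RN7SL3 stood at −5.63 ± 0.14 and the copy RN7SL4P at −5.36 ± 0.19. Near-identical copies share reads, so their values are not separate measurements. RN7SL128P and the related Metazoa_SRP had 2 and 5, and 3 and 0 reads in the pulldowns, against 74 and 111, and 143 and 219, in the total inputs.

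Of a list of RNA polymerase III transcripts, which includes RN7SL1 and RN7SL3, 5 of 5 fell, with a median of −3.45. BCYRN1, a cytoplasmic RNA of neurons and tumors, had 24.0 and 24.6 CPM in the total inputs and 2.51 and 2.46 CPM in the pulldowns (−3.29 ± 0.13). The vault RNA VTRNA1-3 stood at −3.45 ± 0.31 and the Y RNA RNY1 at −3.39 ± 0.37. By biotype, 22 of 23 small nuclear, 17 of 17 small nucleolar and 4 of 4 Cajal body RNAs tested were depleted, with medians of −2.37, −2.09 and −2.60. A list of such RNAs made by symbol, without the RNVU1 variants and genes named otherwise, held 30, all depleted. SCARNA7, a guide RNA of Cajal bodies, had 30.2 and 27.6 CPM against 1.89 and 1.60 CPM (−4.05 ± 0.20), and the spliceosomal RNA RNU5A-1 stood at −3.87 ± 0.32. Among the least depleted of this list were the nucleolar RNAs SNORA11F at −1.31 ± 0.31, not called without lysate 1 (−1.12), and SNORD3B-1 at −1.54 ± 0.16.

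**Figure D4:**
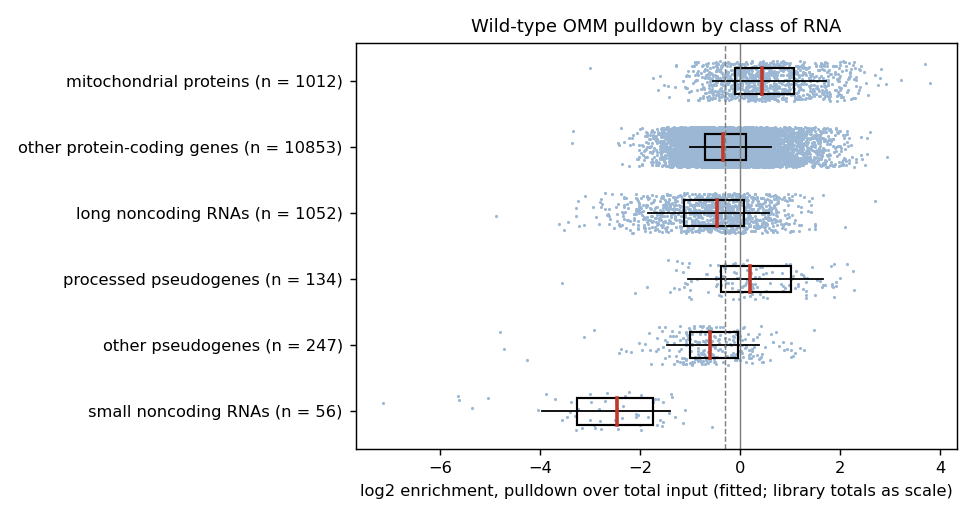
Log2 enrichment by class of RNA, with a point for each gene, boxes from the 25th to the 75th percentile, lines from the 10th to the 90th and a red bar for the median; the dashed line is the median of all genes. Medians run from 0.44 for mitochondrial genes and 0.20 for processed pseudogenes, those of ribosomal proteins included, to −2.47 for small noncoding RNAs. The leftmost point of the latter is Metazoa_SRP with 3 and 0 pulldown reads.

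Of 1052 lncRNAs, 121 (11.5%) were enriched and 439 (41.7%) depleted, against 20.0% and 47.5% of all genes, with a median of −0.45 and a tail that reached far lower than that of protein-coding genes: 293 lncRNAs were depleted with a value below −1 and 29 enriched above 1. With TMM scaling, 219 were enriched and 319 depleted. The lncRNAs had fewer reads in the total inputs, with a median of 167 against 1355 for all genes. Fewer reads make both calls harder to reach, and how far this lowers the shares was not tested. Without lysate 1, 60 rose and 252 fell, and without lysate 2, 41 and 238. With transcript length the lncRNAs' enrichment had a Spearman's ρ of −0.21, weaker than among protein-coding genes.

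LncRNAs known to stay in the nucleus were low. Of 7 tested, 5 fell and none rose, with a median of −0.996. NEAT1, the scaffold of paraspeckles, had 168 and 217 CPM in the total inputs and 40.5 and 50.7 CPM in the pulldowns (−2.07 ± 0.18), and FTX, from the X inactivation center, fell by 2.03 on the log2 scale. LINC-PINT did not pass the test (−0.63 ± 0.34). Of 6 lncRNAs listed here as cytoplasmic, 2 rose and 3 fell (median −0.45). OIP5-AS1, a cytoplasmic regulator, had 169 and 184 CPM against 48.3 and 56.8 CPM (−1.75 ± 0.10). TUG1, counted in this list although the annotation has it as protein coding, fell by 0.70, and DANCR (0.57 ± 0.12) and ZFAS1 (0.38 ± 0.10) rose. TUG1 and ZFAS1 were not called without lysate 1 (−0.70 and 0.38) or lysate 2 (−0.70 and 0.37), nor was TUG1 with TMM scaling (−0.39), nor was DANCR without lysate 1 (0.53).

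DANCR and ZFAS1 also host small nucleolar RNAs in their introns. Of 28 such host genes, 10 rose and 12 fell with a median of −0.18, and with TMM scaling 13 rose and 6 fell. Among all genes 20.0% rose and 47.5% fell. SNHG7 went from 34.1 and 42.7 CPM to 67.9 and 90.8 CPM (1.04 ± 0.10) and SNHG8 from 42.4 and 39.3 CPM to 88.3 and 79.1 CPM (1.03 ± 0.13). SNHG22 stood at the other end at −2.44 ± 0.30, with 2.19 and 1.55 CPM in the total inputs.

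The 5 most enriched lncRNAs all overlap other genes. MIF-AS1 (chromosome 22, 23894426 to 23898930) had 1.15 and 2.18 CPM in the total inputs and 9.41 and 11.5 CPM in the pulldowns (2.69 ± 0.23), and 47% of its exonic bases lie under MIF on the opposite strand, itself enriched at 2.07 ± 0.18. TRIM7-AS2 (2.10 ± 0.18), ENSG00000288044 (1.65 ± 0.19), ENSG00000225721 (1.49 ± 0.27) and EXOSC10-AS1 (1.49 ± 0.24) share 37%, 71%, 52% and 28% of their exonic bases with other genes. Whether counting used the strand is not given in the sources used here, so reads of such a pair cannot be told apart. Of the 121 enriched lncRNAs, 84 share exonic bases with another gene, as do 253 of the 439 depleted and 311 of the 492 not called. With at least 25% of exonic bases under a protein-coding gene lie 29 of the enriched, all on the opposite strand. The same holds for 37 of the depleted, 31 on the opposite strand, and 76 of those not called, 72 on the opposite strand. Of the 404 lncRNAs with no shared exonic base, 37 rose and 186 fell (median −0.56). Chosen after their values were seen, 3 examples among them were GIHCG, with 8.40 and 8.86 CPM in the total inputs and 20.7 and 25.9 CPM in the pulldowns (1.43 ± 0.13), TBX2-AS1 (1.42 ± 0.24) and DSP-AS1 (1.37 ± 0.17).

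The 5 largest falls of lncRNAs were those of ENSG00000270933 (−4.88 ± 0.51), ENSG00000271533 (−3.63 ± 0.43), ENSG00000273338 (−3.52 ± 0.36), MIRLET7A1HG (−3.45 ± 0.22) and ENSG00000261889 (−3.29 ± 0.37). MIRLET7A1HG, a host of let-7 microRNAs, was the most abundant, with 34.8 and 30.6 CPM in the total inputs and 3.50 and 2.54 CPM in the pulldowns. LncRNAs without a gene symbol were lower as a group, with 23 enriched and 207 depleted of 365 (median −0.85), than antisense lncRNAs, with 49 and 81 of 295 (−0.24), and divergent ones, with 19 and 39 of 145 (−0.14).

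Of 381 pseudogenes, 74 were enriched and 129 depleted, with a median of −0.35 beside −0.31 for all genes, and their kinds differed. Of 134 processed pseudogenes, which are copies of spliced mRNAs, 50 rose and 20 fell (median 0.20), whereas of 247 others, 42 of them annotated as transcribed processed pseudogenes, 24 rose and 109 fell (−0.60). Pseudogenes of cytosolic ribosomal proteins accounted for 33 of the enriched ones, 33 enriched and 6 depleted of 45, with a median of 1.10. Most of these 33 are processed pseudogenes and enter the 50 above, so the median of 0.20 does not describe processed pseudogenes of other genes. The largest rises were those of RPS28P4 (2.27 ± 0.24), RPL23AP42 (2.26 ± 0.17), RPS28P7 (2.13 ± 0.15), RPL36AP37 (2.01 ± 0.14) and ENSG00000224114 (1.93). RPS28P7 had 73.6 and 65.5 CPM in the total inputs and 291 and 317 CPM in the pulldowns. Enrichment of 107 processed pseudogenes and that of the gene each is named for had a Spearman's ρ of 0.73, against 0.41 for 101 other pairs. Such copies share sequence with their parent genes, and whether their reads are the parents' reads was not tested. With TMM scaling 104 pseudogenes rose and 85 fell. Without lysate 1, 58 fell, and without lysate 2, 43 rose and 48 fell.

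The largest falls of pseudogenes were of copies of the mitochondrial genome that lie in the nuclear genome. MTATP6P1 (chromosome 1, 633696 to 634376, 1 exon), a copy of the gene for an ATP synthase subunit, had 69.2 and 66.6 CPM in the total inputs and 3.10 and 1.85 CPM in the pulldowns, a 27.9-fold lower share (−4.80 ± 0.28, adjusted p = 9.5e-06). MTND2P28 stood at −4.72 ± 0.51, MTCO1P12 at −4.26 ± 0.42 and MTND4P12 at −3.55 ± 0.40, and these 4 were all of their kind that passed the minimum. They are near-identical to genes that every library lists at 0, and how much of their signal comes from transcripts made inside mitochondria was not tested. The fifth, KLRA1P (−3.13 ± 0.37), is a remnant of a family of receptors on killer cells.

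Ribosome profiling of the same OMM labelling allowed a comparison for 7040 of the genes, those with a mean of at least 64 footprints in 2 total inputs. Across them RNA and footprint enrichment had a Spearman's ρ of 0.71 (0.75 for 709 mitochondrial genes), and 82.6% had the same sign. Among mitochondrial genes, short ones were higher in RNA than in footprints, with medians of 1.32 and 0.93 over 175 genes, and long ones were lower, with 0.25 and 0.35 over 253. The 2 readouts come from different libraries with different scales, so these are descriptions without a test.

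Single genes showed the contrast more sharply. ALDH18A1 had a footprint log2 enrichment of 4.20 and 4.17 in the 2 replicates, beside 1.92 in RNA, IARS2 3.60 and 3.47 beside 1.96, and GFM2 3.58 and 3.74 beside 1.74. AKAP1 had 2.25 and 2.37 in footprints and 0.47 in RNA. NDUFB9 was the reverse, with 1.91 and 2.26 in footprints and 3.69 in RNA. Chosen after their values were seen, IMMT, which organizes cristae, had 1.67 and 1.31 in footprints and −0.48 in RNA (−0.17 and not called with TMM scaling), and 3 genes for short proteins had RNA enrichment without that of footprints: RPL11 (1.62 in RNA, −1.20 and −1.80 in footprints), UQCRB (1.66, −0.40 and −0.33) and TIMM8B (1.80, −0.17 and −0.26).

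Histones differed as a group between the readouts. Over the 40 with enough footprints, the median was 0.37 in RNA and −0.46 in footprints, and 2 of 40 had footprint enrichment above 0. H2AC17 had −1.48 and −1.42 in footprints and 0.50 in RNA. Cytosolic ribosomal proteins were high in both, with medians of 1.47 and 0.96 over 70 genes. For all 7040 genes the medians were −0.27 and −0.37.

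**Figure D5:**
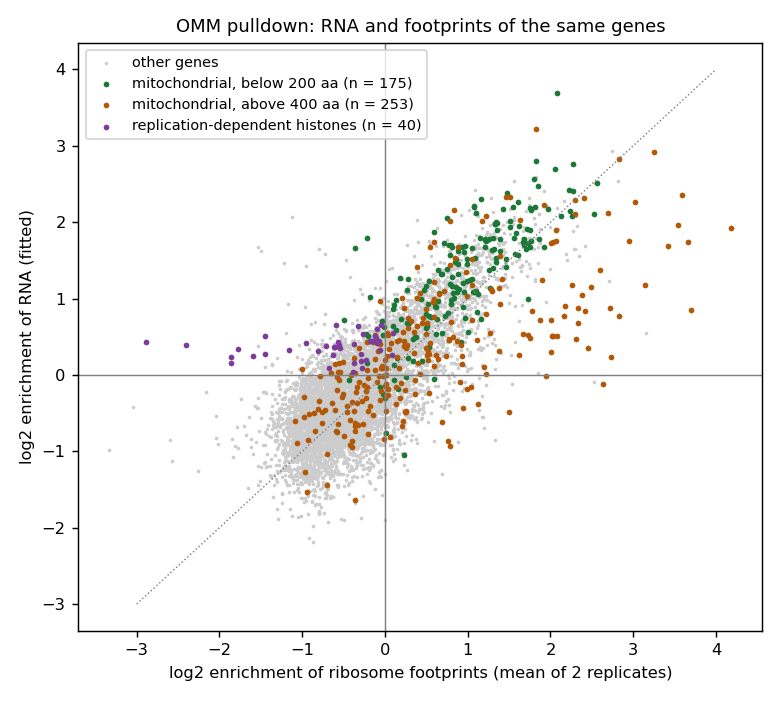
Log2 enrichment of RNA (fitted) against that of ribosome footprints (mean of 2 replicates) for 7040 genes, with mitochondrial genes below 200 aa and above 400 aa and replication-dependent histones in color and a dotted line of equal values. Long mitochondrial genes spread to the right of the line, up to 4.19 for ALDH18A1, and histones sit above 0 in RNA and mostly below 0 in footprints.

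The wild-type pattern was set against that of the null lines in the same fit. These contrasts share the wild-type libraries. Between AKAP1 null and wild-type cells, enrichment was lower in the null line for 1056 genes (7.86%) and higher for 902 (6.72%), with a median difference of 0.19. With TMM scaling it was lower for 1368 and higher for 270. The counts moved with each library: from 356 to 1847 lower and from 120 to 4529 higher when each of the 6 lysates was left out in turn, the lowest without a wild-type lysate (435 lower and 120 higher without lysate 1, 356 and 129 without lysate 2), 539 and 207 without the first and 431 and 162 without the second AKAP1 null lysate, and 1842 and 4529 without the first and 1847 and 4519 without the second LARP4 null lysate.

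The difference between the lines varied with length. Of 255 mitochondrial genes for short proteins, enrichment was lower in the AKAP1 null line for 167 and higher for none, and of 357 for long proteins it was lower for 6 and higher for 206, and with TMM scaling the counts were 184 and 0, and 7 and 169. COX6A1 stood at 3.80 in wild-type and 0.49 in AKAP1 null cells, and NDUFB9 at 3.69 and 0.46. UQCRC1 went the other way, 3.22 and 4.30, as did IARS2, 1.96 and 3.27. COX6A1 and NDUFB9 were chosen for their wild-type enrichment, which also enters the difference, so a lower value in the null line is partly built in for them. All 12 complex IV subunits and 79 of 84 cytosolic ribosomal proteins were lower in the AKAP1 null line, and 12 of 16 mitochondrial tRNA synthetases were higher. No small noncoding RNA passed this test in either direction, although 4 were lower with TMM scaling. Only 56 were tested, with a median of 179 reads in the total inputs, and 55 were depleted from the wild-type pulldowns. The lack of calls therefore does not show that they are unaffected.

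Between LARP4 null and wild-type cells, no gene (0.0%) passed the edgeR test in either direction, with 2232 genes at an unadjusted p under 0.05, and DESeq2 called 509 lower and 3 higher. Without the first LARP4 null lysate 1119 genes were lower and 4452 higher, and without the second, whose pulldown stands apart, 86 and 3. COX6A1 stood at 3.01 and UQCRC1 at 2.90 in the LARP4 null line. The median of short mitochondrial genes was 0.83 there, beside 1.16 in wild-type and 0.33 in AKAP1 null cells. The medians of all genes differed as well, at −0.08 in LARP4 null, −0.31 in wild-type and −0.13 in AKAP1 null cells. The LARP4 null values include the lysate whose pulldown stands apart, and the differences between these medians were not tested.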

How the data were processed

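The authors aligned paired reads to GRCh38 with STAR and counted them per gene with featureCounts (strand and multimapping settings are not given in the sources used here), and deposited raw counts for each gene. The labels name polyA RNA, whereas the methods describe depletion of ribosomal RNA. The authors also deposited a score named FPKM, which is 10 times the FPKM that counts and lengths give, and was used only for ratios. For ribosome profiling the authors deposited estimated counts per coding sequence, whose CPM were compared as log2 ratios without a test. A broken entry, ANK2, was left out.

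Counts were tested with edgeR 4.0.16 (glmQLFit and glmQLFTest, two-sided) in R 4.3.3, with library totals as scale, a term for each of 6 lysates and a pulldown effect for each genotype, over 12 libraries, and Benjamini-Hochberg adjustment over 13427 genes (called below 0.05). The fit left 3 residual degrees of freedom and gave a common biological coefficient of variation of 0.103. Values of single lysates add 0.5 counts before log2. The pairing comes from the study's matched total inputs, and deviations from group means of total input and pulldown of a lysate correlated at 0.643 to 0.887. On simulated data 31.5%, 87.5% and 100% of 200 changed genes were recovered at log2 changes of 0.5, 1 and 2, with 10 to 19 unchanged genes called.

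Biotypes, exon counts and lengths of transcripts, proteins and untranslated regions are from GENCODE 44 on GRCh38, matched by Ensembl identifier for 60462 of 60663 genes. Coordinates and exon overlaps are from the exon intervals that the authors deposited with the counts. Mitochondrial genes and their compartments are from the study's annotation (1055 used). Genes were named if they were the 10 largest rises or falls of protein-coding genes, or 5 of another class, called with the same sign in both lysates, if the study names them, or if they were among the 3 highest or 2 lowest of 24 lists, and a few that the rule names are not reported here. Members, lists and rules were chosen with earlier results of these data known. Alternatives were TMM, DESeq2 1.42.0, a minimum of 10 reads and one 4 times as high, 4 libraries alone, no term for lysates, the score, leaving out lysates, and genes without shared exons.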

Additional observations from a re-analysis of the deposited data

Results flagged for a closer look

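A test of the difference in enrichment between AKAP1 null and wild-type cells (edgeR quasi-likelihood, contrast of the pulldown effects, Benjamini-Hochberg adjustment) passed for all 10 genes most enriched in wild-type cells. They were chosen by values of the same wild-type libraries, so that lower values in the null line are partly built in. For 7 of them, all of which encode short proteins, enrichment was lower in the null line: COX6A1 by −3.31 on the log2 scale, NDUFB9 by −3.23, MZT2B by −2.44, UQCRQ by −2.28, COX7A2 by −2.27, COX5B by −2.04 and PHPT1 by −1.72. For the 3 that encode long proteins it was higher: PMPCA by 1.17, UQCRC1 by 1.08 and METTL17 by 0.99. Across all genes tested the difference passed in the same way for 1056 that were lower and 902 that were higher, against a median difference of 0.19. The AKAP1 null line is 1 clone, so the allele and the clone cannot be told apart. Groups of 2 lysates are too small to look for single samples far from the others.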

How the results depend on the processing

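TMM scaling shifts the median of all genes by 0.31. With TMM scaling 4201 genes were enriched and 3761 depleted, 77 mitochondrial genes were depleted, 219 lncRNAs enriched, 85 pseudogenes depleted and 270 genes higher in the AKAP1 null line. DESeq2 called 3591 genes, 74 mitochondrial genes and 81 pseudogenes depleted, 191 lncRNAs enriched, 349 genes higher in the AKAP1 null line, and 509 lower and 3 higher in the LARP4 null line. SUPV3L1 turned to 0.27 and 0.26 with these tools, LARP4 to 0.082 and 0.075, TBRG4 to 0.22 and 0.22, and RPSA to 0.025 and 0.018. Requiring a log2 change of 1 left 860 enriched and 1601 depleted.

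Without the replicate block, 122 mitochondrial genes were depleted, 58 lncRNAs enriched, and 328 genes lower and 100 higher in the AKAP1 null line, and no other count moved by over 1.5 times. With each wild-type lysate left out, 1654 to 1805 genes were enriched and 3658 to 4323 depleted, 102 to 105 mitochondrial genes depleted, 41 to 60 lncRNAs enriched and 238 to 252 depleted, and 43 to 50 pseudogenes enriched and 48 to 58 depleted. The median of pseudogenes minus that of all genes was −0.057 without lysate 2 and 0.027 without lysate 1, and SUPV3L1 stood at −0.11 and 0.019. Without the LARP4 null lysate whose pulldown stands apart, 3185 genes were enriched and 7424 depleted, among them 626 and 220 mitochondrial genes, 173 and 574 lncRNAs and 90 and 186 pseudogenes. Leaving out any lysate gave 356 to 1847 genes lower and 120 to 4529 higher in the AKAP1 null line, and 0 to 1119 and 0 to 4452 in the LARP4 null line, where the lone lysate is assumed to vary like the others.

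With at least 10 reads, 193 lncRNAs, 170 pseudogenes and 1 small noncoding RNA were enriched, 949, 298 and 217 were depleted, and the lysates' r was 0.85. With a minimum 4 times as high as 64 reads, 40 lncRNAs and 28 pseudogenes were enriched, and 189, 57 and 19 of the 3 classes depleted. The 4 wild-type libraries alone gave 184 lncRNAs enriched and 195 pseudogenes depleted. Among genes that share no exonic base, an alternative chosen after seeing the data, 37 lncRNAs were enriched and 186 depleted, and 67 pseudogenes depleted. Leaving out the genes of the mitochondrial genome changes nothing, since all are at 0. Of 123 genes given with a log2 value, 99 had the same call under every alternative run, and of 1202 pairs of gene and alternative 50 lost a call, 6 gained one and 9 turned direction. In the simulation, where 200 of 13427 genes were changed, changes of 0.5 on the log2 scale were mostly missed. In the libraries themselves 67.5% of genes were called, so the adjusted cut-off differs and this share does not carry over. SEs rest on a spread between lysates estimated over all 6 lysates of the wild-type and null lines, and reads were not counted by molecular identifiers. The common biological coefficient of variation was 0.103 over 12 libraries and 0.045 over the 4 wild-type ones.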

Other observations

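Families grouped by gene name, chosen after the main values were seen, add detail outside the lists above. Their counts stand beside 20.0% enriched and 47.5% depleted of all genes. Enrichment varied with transcript and protein length, and no family was set against genes of like length. Of 22 genes for the small Sm and LSm proteins of the spliceosome and of mRNA decay, 18 were enriched and 2 depleted (median 1.13), a value within the range of the ribosomal protein lists. Of 420 zinc finger genes named ZNF, 15 were enriched and 301 depleted (median −0.67, against −0.31 for all genes), and with TMM scaling 41 and 202. Of 40 kinesins and dynein heavy chains, 1 rose and 31 fell (−0.75).

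Proteasome subunits stood between, with 15 enriched and 8 depleted of 33 (0.16). Initiation factor subunits had 15 and 22 of 54 (−0.13), subunits of RNA polymerases I, II and III 15 and 14 of 32 (−0.14) and subunits of the V-type proton pump 8 and 6 of 17 (−0.03). The medians of the latter 3 lie above that of all genes and change sign with TMM scaling, which adds 0.31. Solute carriers outside the SLC25 family had 15 enriched and 91 depleted of 172 (−0.34). Of 29 collagens and laminins none was enriched and 14 were depleted (−0.46), the latter near the 47.5% of all genes. Under TMM scaling 4 of these 29 were enriched and 7 depleted. Genes of unclear biotype that await experimental evidence were low, with 2 enriched and 44 depleted of 57 (−1.20).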
